A study of Mus musculus with 48 samples.

Results

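Gene expression was compared between day 0 and day −2 in 3T3-L1 cells transfected with siRNA against PPARγ, the nuclear receptor that directs fat cell formation. The comparison uses 6 of the 48 arrays of the series, 3 biological replicates on each day, matched by replicate number, and covers all 24613 probes. 3T3-L1 is an established mouse fibroblast-like line that becomes fat-laden under hormones, and every array came from this line. The PPARγ siRNA was a pool of oligonucleotides given at 50 nM before differentiation, and the matching arrays of the control arm, used here only to show where the knockdown differed, carried a pool of non-targeting siRNA at the same dose. By the sample descriptions, days are counted from the addition of rosiglitazone, and already confluent cells received dexamethasone (0.25 µM) together with isobutylmethylxanthine (IBMX, 0.5 mM) during the 48 h before it, with 5 µg/ml insulin and 1 µM rosiglitazone only from day 0 onwards. The 2 days were given to this work as the time in which cells reach confluence. The protocol goes against that name, because the cells were confluent on day −2, and the interval is therefore called day −2 to day 0 under PPARγ siRNA. No arm without the hormones was measured, so that the hormones and 2 more days in confluent culture cannot be told apart.

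Dexamethasone is a synthetic glucocorticoid that activates the glucocorticoid receptor. IBMX blocks phosphodiesterases, the enzymes that break down cyclic AMP (cAMP), and so raises cAMP. In preadipocytes these signals are known to switch on the early factors C/EBPβ and C/EBPδ, which come before PPARγ and C/EBPα, and PPARγ together with its partner RXR turns on the genes of lipid storage. Confluent 3T3-L1 cells are also known to re-enter the cell cycle for a limited number of divisions after hormonal induction. When these cells divided was not measured. PPARγ siRNA lowers the receptor before any of this begins.

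The arrays gave the mean bead signal of each probe, and values below are log2 signals after background correction and scaling, so that 1 unit is a doubling. A probe counts as above background where its detection p is under 0.01, which held for 33.7% to 39.3% of probes per array, with replicate 3 at the low end on both days (33.7% and 34.0%). The number of arrays limits the precision. Where nothing more is said, adjusted p-values come from limma with Bonferroni correction over all probes, a change is called when its adjusted p is at most 0.05, and a gene with several probes is given by its brightest one. Gene names are those of the array, updated through RefSeq synonyms.

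The knockdown was visible before and after the hormones. Probe 6130632 of Pparg had log2 signals of 7.71, 7.58 and 7.75 on day −2 and 8.80, 9.11 and 9.46 on day 0 under PPARγ siRNA, so that all day 0 arrays lay above all day −2 arrays. The rise was 1.45 (SE 0.11, adjusted p = 9.18e-11), and under control siRNA it was 1.23. Against control siRNA the signal was lower by a log2 difference of −2.41 on day −2 (SE 0.11, adjusted p = 5.37e-18) and −2.19 on day 0 (adjusted p = 1.40e-16). The remaining transcript thus rose over the 2 days from a lower level, and the difference between the rises, 0.22, did not pass the test (adjusted p = 1). Probe 1990168 of the same gene was above background on no array of the knockdown and on 3 of 3 control arrays on both days.

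Over the 2 days 1818 probes were called, 7.39% of all probes, under 1644 gene symbols. Of these, 828 (3.36% of all probes) were higher and 990 (4.02%) lower on day 0, and each of them moved the same way in all 3 replicates. The median log2 change was 0.91 among the higher and −0.88 among the lower probes. Changes of over 2-fold were found for 351 higher and 381 lower probes, and changes of over 8-fold for 24 higher and 10 lower. Counted by genes with their brightest probe, 8.38% of 18750 genes were called, 3.82% higher and 4.56% lower, and these shares are the background for the gene lists below. Under median scaling the division was 404 higher and 865 lower. The median change of all probes was 0.13 here, 0.024 under median scaling and 0.0065 under quantile normalization. It was 0.0018 over the 8602 probes above background on all arrays of at least 1 of the days and 0.16 over the 14362 probes above background on no array. In these bulk samples a change in the share of cells that express a gene and a change in RNA per cell cannot be told apart.

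The 12 highest rises were in genes of secreted defence and acute phase proteins, a transcription factor and known glucocorticoid-responsive genes. Ear2, which encodes an eosinophil-associated ribonuclease, had signals of 5.11, 5.12 and 5.40 on day −2, all below background, and 13.36, 13.55 and 14.00 on day 0, at least 142-fold higher (fitted means 5.21 and 13.64, adjusted p = 6.50e-27). All 3 Ear2 probes rose, and the EAR3 probe rose by 5.38, but the genes of this family are close copies of each other and the probes may not tell them apart. Lcn2, the iron-sequestering lipocalin of the acute phase, went from 6.26, 6.01 and 6.42, below background, to 13.11, 13.32 and 12.99, at least 101-fold higher (fitted means 6.23 and 13.14, adjusted p = 8.35e-31). Its day 0 arrays lay close to each other and far above any day −2 array. Klf5, a transcription factor that acts between the early C/EBP factors and PPARγ, was above background on both days, with 8.11, 8.10 and 8.02 on day −2 and 11.95, 12.06 and 12.35 on day 0. This was a change of 16.5-fold (log2 4.04, SE 0.12, adjusted p = 2.02e-24). Fkbp5, a chaperone of the glucocorticoid receptor and one of its classical targets, rose from 8.43, 8.50 and 8.39 to 11.63, 11.75 and 12.22, or 10.8-fold (log2 3.43, SE 0.13, adjusted p = 1.81e-21). Hp, the haemoglobin-binding acute phase protein haptoglobin, rose 14.4-fold, from 7.09, 6.90 and 7.15 to 10.75, 10.95 and 10.98 (adjusted p = 4.73e-22).

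The other 7 genes of this group were above background on no day −2 array. Sult1a1, a phenol sulfotransferase, was at least 13.7-fold higher on day 0 (fitted log2 change 4.77), Wfdc3 at least 14.0-fold (4.35) and Pip at least 6.90-fold (3.88). Prg4, the lubricating proteoglycan lubricin, was at least 3.99-fold higher (3.58) and Il31ra, a cytokine receptor chain, at least 4.07-fold (3.20). Glul, which makes glutamine and responds to glucocorticoids in many tissues, differed more between replicates than the others, with 9.0, 9.8 and 7.0 on day 0 against 5.02, 5.20 and 5.14 on day −2, at least 4.36-fold higher (fitted log2 change 3.49, SE 0.53, adjusted p = 0.00217). Replicate 3 was the low array on day 0, and the call was lost without replicate 1 (3.25) or replicate 2 (2.92). EAR3 was at least 28.1-fold higher.

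**Figure D1:**
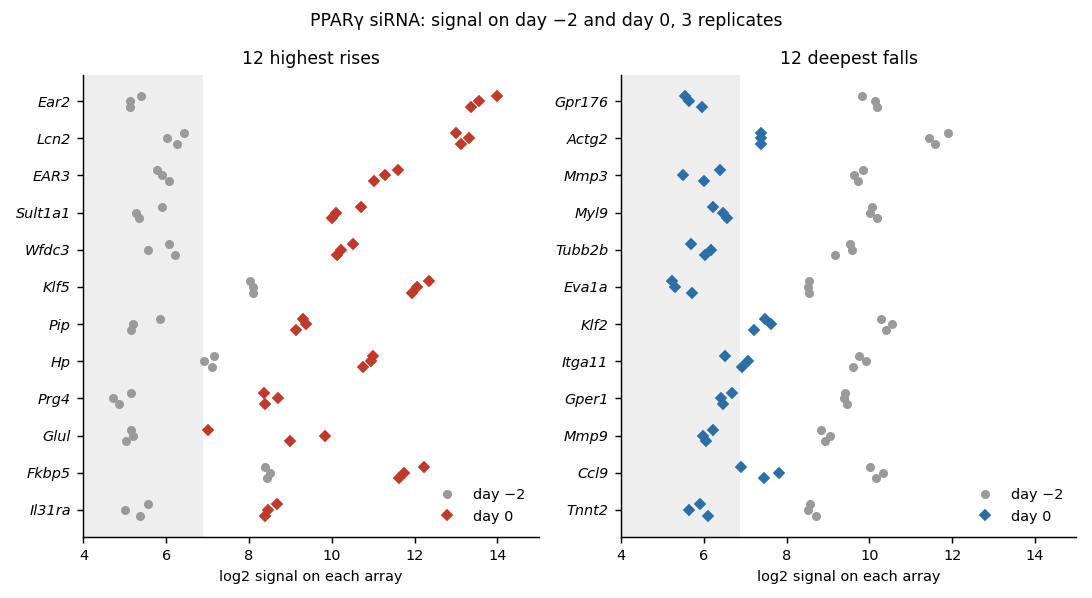
Log2 signal on each of the 6 PPARγ siRNA arrays (x axis) for the 12 highest rises and the 12 deepest falls between day −2 (grey circles) and day 0 (coloured diamonds); each gene has 3 points a day, offset vertically by replicate. The grey area reaches to 6.85, the highest of the arrays' lowest signals above background, and for no gene drawn do the points of the 2 days overlap.

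The 12 deepest falls were led by genes of the contractile cytoskeleton, matrix enzymes and surface receptors. Gpr176, an orphan receptor coupled to G proteins, fell from 10.18, 10.12 and 9.81 to 5.95, 5.63 and 5.53, below background on all day 0 arrays, and was at least 11.4-fold lower (fitted means 10.04 and 5.70, adjusted p = 7.98e-22). Actg2, smooth muscle γ-actin, stayed above background and fell 19.1-fold, from 11.58, 11.44 and 11.90 to 7.38 on each of the 3 day 0 arrays (log2 change −4.26, SE 0.11, adjusted p = 1.31e-26). The fall was thus far larger than the spread on either day. Mmp3, the matrix protease stromelysin, had 9.73, 9.63 and 9.84 on day −2 and 6.01, 5.49 and 6.38 on day 0, at least 9.27-fold lower (fitted log2 change −3.77, adjusted p = 2.12e-23). Myl9, a regulatory light chain of myosin, fell 12.8-fold, from 10.19, 10.02 and 10.05 to 6.55, 6.46 and 6.23 (adjusted p = 4.23e-22). Klf2, a transcription factor known to hold back Pparg, fell 7.81-fold, from 10.39, 10.55 and 10.28 to 7.21, 7.63 and 7.49 (log2 change −2.96, SE 0.13, adjusted p = 2.55e-19). All Klf2 arrays of day 0 lay more than 2 units below those of day −2.

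Among the others of this group, Tubb2b (β-tubulin) was at least 7.48-fold lower, Mmp9 (gelatinase B) at least 5.31-fold, Tnnt2 (cardiac troponin T) at least 4.20-fold and Eva1a at least 4.02-fold, all below background on day 0. Itga11, a collagen-binding integrin, fell by 2.92 on the log2 scale, Gper1, a membrane receptor for estrogen, by 2.90 and Ccl9, a chemokine, by 2.77. Each of the 12 genes fell in 3 of 3 replicates and kept its call without any 1 replicate.

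Most of the known glucocorticoid targets rose. Of 29 genes on the array, 20 were called higher and 0 lower, against 3.82% and 4.56% of all genes, and the median log2 change was 1.22 beside 0.13 for all genes. At an unadjusted p under 0.05 from limma, which 19.9% of all genes met as higher and 13.3% as lower, 23 were higher and 0 lower. The list was chosen with earlier results of these data known, so its shares are a description. It holds Fkbp5, Lcn2, Sult1a1 and Glul, which are named above among the highest rises. Of the genes called, Zbtb16 was below background on all arrays of both days. Tsc22d3, the glucocorticoid-induced leucine zipper, went from 6.43, 6.47 and 7.05 to 9.26, 8.96 and 10.36 (log2 change 2.88, SE 0.15, adjusted p = 1.30e-16), with no overlap between the days. Per1, a clock gene with a glucocorticoid-responsive promoter, rose from 7.35, 7.48 and 6.82 to 9.12, 9.10 and 8.64 (1.74, SE 0.16, adjusted p = 1.11e-08). The feedback genes Dusp1, a phosphatase of MAP kinases (1.52), and Errfi1, an inhibitor of the EGF receptor (2.47), the metabolic regulators Pdk4 (2.57) and Angptl4 (2.74), and the metallothioneins Mt2 (2.14) and Mt1 (1.22) were all called. These 6 genes were picked after their values were seen, as examples of the list's roles. Not every classical target moved. Sgk1, a kinase induced by glucocorticoids elsewhere, had a change of 0.023 at a high level (12.50 on day −2 and 12.52 on day 0), and Tat and Gpx3 were below background on both days. Under control siRNA 18 of the 29 genes were called higher, with a median of 1.15, against 4.53% of all genes, and the difference between the siRNAs was called for Lcn2 alone. Without the replicate block 13 of the 29 were called.

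Of 23 genes of the cAMP list, 7 were called higher and 0 lower, against 3.82% and 4.56% of all genes. The median change was 0.18, beside 0.13 for all genes. At an unadjusted p under 0.05 from limma 10 were higher and 4 lower, against 19.9% and 13.3% of all genes. The 7 were Rgs2, Pde4d, Sik1, Fosl2, Pde4b, Pde4a and Pde10a. Rgs2, which shuts off G protein signals, rose from 6.71, 6.87 and 6.63 to 8.69, 9.02 and 8.29 (1.93, SE 0.14, adjusted p = 2.76e-12). Pde4d, a cAMP phosphodiesterase, rose from 7.06, 6.87 and 6.91 to 8.57, 8.78 and 8.78 (1.76, SE 0.16, adjusted p = 2.94e-09), and Sik1, a kinase induced by cAMP, from 7.59, 7.22 and 7.96 to 8.93, 8.99 and 9.78 (1.64, SE 0.11, adjusted p = 1.00e-12). For these 3 genes every day 0 array lay above every day −2 array. Pde4b rose in 3 of 3 replicates, from 5.16, 5.12 and 5.20, below background, to 7.14, 7.11 and 5.62, at least 1.1-fold higher, and lost its call without replicate 1 (fitted change 1.21) or replicate 2 (1.20). Among the probes of Pde4a, 2 were called in opposite directions, 1.06 for the brighter and −0.93 for the other. Fosl2, a transcription factor of the Fos family, rose by 1.43, from a mean of 10.26 to 11.69 (SE 0.11, adjusted p = 5.79e-11), and Pde10a, another phosphodiesterase, by 1.04 (adjusted p = 4.05e-08). The immediate early genes Fos, Junb and Nr4a1 were not called, with changes of −0.19, 0.08 and 0.18, the last below background.

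**Figure D2:**
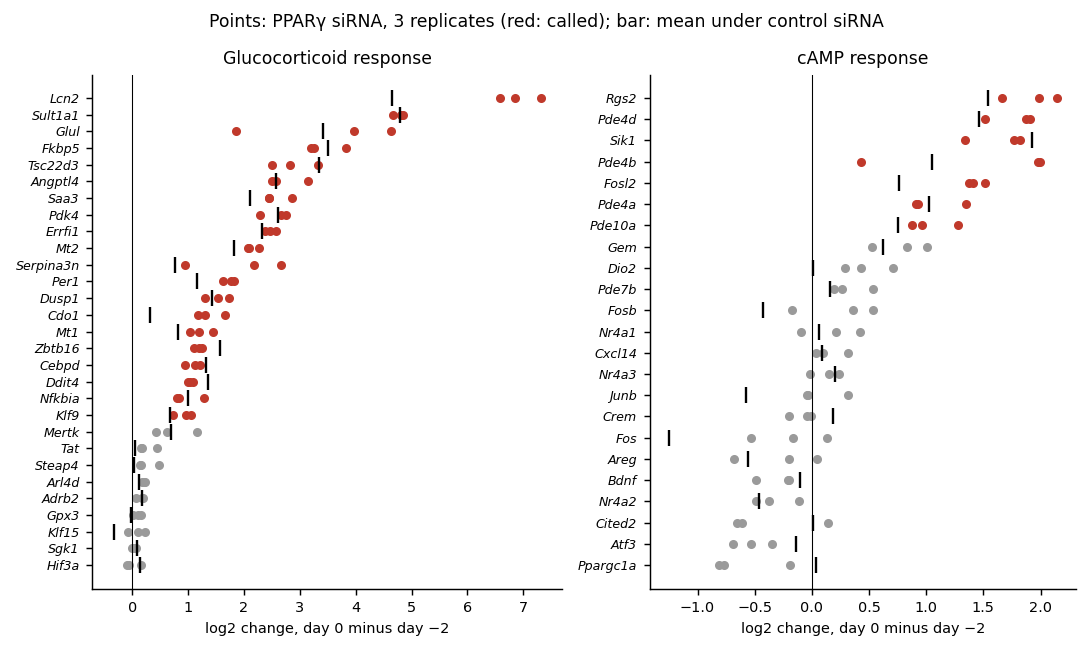
Log2 change from day −2 to day 0 (x axis) of each gene of the glucocorticoid (29 genes) and cAMP (23 genes) lists under PPARγ siRNA, with 1 point per replicate, red where the gene was called; the black bar is the mean change under control siRNA. The 3 Lcn2 points lie to the right of the bar at 4.65, and it is the only one of these genes whose difference from control siRNA was called.

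The promoters of 2 of these genes are shown because they hold the spaced glucocorticoid half-sites ACANNNTGT close to the start of a gene that rose, and that of Il1rl1 because its level fell in control cells and was not called in the knockdown. Each window runs from 250 bases before to 50 bases after the RefSeq start in GRCm38.p6. Capitals mark matches to any of the 5 motif groups searched: ACANNNTGT, the CCAAT box (CCAAT or ATTGG), the E2F site (TTTCCCGC or TTTGGCGC), the cell cycle homology region (TTTGAA or TTCGAA) and the cAMP element TGACGTCA, on both strands. The Lcn2 window lies at chr2:32387690-32387989 on the minus strand, the Glul window at chr1:153899679-153899978 on the plus strand and the Il1rl1 window at chr1:40429320-40429619 on the plus strand. In Lcn2 the capitals are ACAGAATGT, in Glul 2 CCAAT boxes and ACAAGCTGT, and in Il1rl1 ACATTGTGT and TTCGAA.
Lcn2: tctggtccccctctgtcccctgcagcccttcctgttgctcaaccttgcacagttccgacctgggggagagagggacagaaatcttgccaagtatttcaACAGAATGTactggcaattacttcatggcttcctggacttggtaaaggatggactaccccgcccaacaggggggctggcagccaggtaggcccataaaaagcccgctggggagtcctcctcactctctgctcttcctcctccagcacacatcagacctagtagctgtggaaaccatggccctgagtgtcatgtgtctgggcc
Glul: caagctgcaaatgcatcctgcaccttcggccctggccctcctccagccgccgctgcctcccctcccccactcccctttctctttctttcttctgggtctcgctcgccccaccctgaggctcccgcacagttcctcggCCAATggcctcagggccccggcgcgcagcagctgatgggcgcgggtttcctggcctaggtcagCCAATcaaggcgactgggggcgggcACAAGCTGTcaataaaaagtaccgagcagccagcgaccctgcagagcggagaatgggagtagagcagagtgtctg
Il1rl1: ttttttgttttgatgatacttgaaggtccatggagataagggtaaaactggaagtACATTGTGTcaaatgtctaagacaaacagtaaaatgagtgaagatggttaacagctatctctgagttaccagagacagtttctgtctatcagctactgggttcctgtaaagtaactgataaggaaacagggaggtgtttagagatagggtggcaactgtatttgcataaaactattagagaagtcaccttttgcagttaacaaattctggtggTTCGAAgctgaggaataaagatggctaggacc

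ACANNNTGT was found in the windows of 7.09% of 564 genes called higher, 5.07% of 671 called lower and 6.56% of all 13496 genes with a window. The cAMP element was found in 3.01%, 2.38% and 2.79%, the CCAAT box in 46.1%, 41.1% and 42.3%, the cell cycle homology region in 14.5%, 18% and 19.2%, and the E2F site in 2.66%, 2.83% and 2.55%. A match is a string of letters and no proof of binding, and sites farther from the start were not searched.

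The early adipogenic factors Cebpb and Cebpd rose under the knockdown. Of 24 adipogenic transcription factors on the array, 6 were called higher and 2 lower, against 3.82% and 4.56% of all genes, with a median change of 0.15. Cebpb went from 12.25, 12.23 and 12.16 to 13.80, 13.82 and 13.82, a 3.03-fold rise with almost no spread (log2 1.60, SE 0.08, adjusted p = 6.78e-18). Cebpd went from 10.52, 10.50 and 10.28 to 11.46, 11.71 and 11.40 (1.09, SE 0.10, adjusted p = 4.00e-09). Nfia, a factor that opens chromatin ahead of PPARγ in fat precursors, rose by 1.65 (SE 0.10, adjusted p = 4.93e-14). In contrast, Cebpa, the partner that normally follows PPARγ, was below background on all 6 arrays, with 5.25, 5.42 and 5.62 on day −2 and 5.74, 5.27 and 5.80 on day 0, values that overlap. For Klf5, Cebpb, Cebpd, Nfia and Cebpa the difference from control siRNA did not pass the test. The falls were in Klf6, by 0.64, which lost the call without replicate 1 (−0.58) or replicate 2 (−0.67), and in Nr1h3. The count of rises was 6 without each replicate, and the sixth gene was Ebf1, a factor of fat precursors, at 0.93.

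Genes listed for this work as adipogenesis inhibitors moved both ways, with 3 called higher and 6 lower of 25. The shares of all genes were 3.82% and 4.56%. Besides Klf2, the zinc finger factors Gata3 (log2 change −1.51, adjusted p = 3.72e-08) and Gata2 (−1.18, adjusted p = 1.44e-09) fell, Gata2 from 10.28, 10.34 and 10.36 to 9.17, 9.36 and 8.90. Both keep preadipocytes undifferentiated. The rises were in Foxc2 (1.39), Id4 (1.28) and Id2 (0.98), the last 2 dominant-negative partners of helix-loop-helix factors. Id4 and Id2 lost their calls without replicate 3 (1.12 and 0.97), and whether they hold adipogenesis back in these cells was not tested. Foxc2 and Id2 had overlapping ranges because replicate 3 was lower on both days, while each replicate rose. Dlk1, the preadipocyte factor Pref-1, stayed high, with 13.85, 13.78 and 14.08 on day −2 and 13.90, 13.96 and 14.39 on day 0 (change 0.18, adjusted p = 1).

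Of 21 genes of the PPAR and RXR receptors and their cofactors, 2 were called higher (Pparg and Rxrb) and 1 lower. Among all genes 3.82% were called higher and 4.56% lower. The lower one was Nr1h3 (change −1.03, adjusted p = 0.000101), the liver X receptor α, which was below background on day 0. It was no longer called without replicate 1 or replicate 2. Rxrb rose by 0.56 and was no longer called without replicate 1 (0.59) or replicate 2 (0.54). Rxra, the main RXR partner, had a change of 0.54 (adjusted p = 0.371) beside 1.42 under control siRNA, and the difference of −0.88 was called (adjusted p = 0.0283). The coactivator Ppargc1b was below background on all 6 arrays and gained 1.63 under control siRNA, a called difference of −1.58.

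Fewer fat cell genes were called in the knockdown than under control siRNA. Of 40 on the array, 20 were below background on both days, 4 were called higher and 1 lower, and the median change was 0.20, beside 16 called higher under control siRNA. The shares of all genes called higher and lower were 3.82% and 4.56% in the knockdown, and 4.53% were called higher under control siRNA. The difference between the siRNAs was called for 11 of the 40, against 0.816% of all genes, and was negative in 10. Adipoq, the hormone adiponectin, was below background on all 6 arrays, with 5.18, 5.03 and 5.98 on day −2 and 5.54, 5.08 and 5.97 on day 0, whereas it gained 3.84 under control siRNA and was above background there on 3 of 3 day 0 arrays. Cidec, a lipid droplet protein, was likewise below background under PPARγ siRNA (change 0.31) and gained 3.33 under control siRNA. Acsl1, which activates fatty acids, stayed between 6.66 and 7.41 on the 6 arrays and gained 2.32 under control siRNA. The exception in direction was Fabp5, a fatty acid carrier. It fell under the knockdown from 7.34, 7.37 and 6.41 to 5.94, 5.75 and 5.77, below background on day 0 (fitted change −1.22, adjusted p = 0.000869), and gained 1.47 under control siRNA. That fall was lost as a call without replicate 1 (−1.13), replicate 2 (−1.02) or background correction, but the difference from control siRNA was called without each replicate. The rises in the knockdown were Agt (angiotensinogen, 1.44), Lipe (hormone-sensitive lipase, 0.93), Dgat1 (triglyceride synthesis, 0.59) and Fasn (fatty acid synthase, 0.51). Without replicate 1 none of these 4 was called, and without replicate 2 or 3 only 1 of the list's rises was. Fabp4 was below background on all arrays of both siRNAs on both days, so that its probe gave no information on this stage.

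Of 27 genes of the actin cytoskeleton, 13 were called lower and 0 higher, against 4.56% and 3.82% of all genes, with a median change of −0.55. At an unadjusted p under 0.05 from limma 21 were lower and 2 higher, against 13.3% and 19.9% of all genes. Acta2, smooth muscle α-actin and a mark of activated fibroblasts, fell from 15.50, 15.45 and 15.52 to 13.10, 13.19 and 13.04, a change of 5.21-fold (log2 −2.38, SE 0.13, adjusted p = 1.23e-15). The days did not overlap, and all 3 Acta2 probes fell. Tropomyosins Tpm1 (−1.81) and Tpm2 (−1.70), picked after their values were seen, fell with the actins and Myl9. Housekeeping members gave −0.22 for Actb and 0.010 for the filament protein vimentin (Vim), neither called by its brightest probe. Actin genes resemble each other in sequence, and cross-hybridization between Acta2, Actg2 and Acta1 was not tested. The count of 13 was 7 without replicate 1 and 8 without replicate 2. Targets of SRF and YAP, the factors that read actin tension, showed 3 falls and 1 rise among 18 genes, against 4.56% and 3.82% of all genes. Fhl2 had a change of −1.71 (adjusted p = 3.26e-15) and Fhl1 of −1.08 (adjusted p = 7.50e-09). The rise, Dlc1 (0.69), was not called without any 1 of the replicates (0.63 to 0.73).

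Extracellular matrix genes moved in both directions. Collagens had 3 genes called higher and 4 lower of 23, against 3.82% and 4.56% of all genes. The basement membrane chains Col4a1 and Col4a2 rose by 1.31 (from 12.62, 12.78 and 12.60 to 13.98, 14.06 and 13.90, adjusted p = 5.94e-11) and 1.07 (adjusted p = 1.18e-11). The fibrillar chain Col1a1 fell by 1.56 on the log2 scale, from 13.10, 13.23 and 13.71 to 11.59, 11.49 and 12.29 (adjusted p = 2.91e-13), and Col4a5, another basement membrane chain, fell by 1.64 (adjusted p = 1.70e-16). The groups did not overlap for any of these 4 genes. Among 44 matrix glycoproteins and enzymes, 5 rose and 7 fell, led by the rises of Vcan (versican, 1.63), Ecm1 (1.58) and Has2 (hyaluronan synthase, 1.34) and the falls of Spp1 (osteopontin, −2.41), Thbs2 (thrombospondin 2, −2.17) and Mfap5 (−1.93). Vcan overlapped between days because replicate 3 was about 2 units lower on both. Of 26 matrix proteases and inhibitors, 4 rose and 10 fell, among them the inhibitor Timp3 (from 10.75, 10.75 and 10.74 to 8.03, 8.30 and 7.92, adjusted p = 5.37e-20). Mmp2, gelatinase A, rose by 0.89 (adjusted p = 1.04e-09), opposite to Mmp3 and Mmp9. Without replicate 1, 1 of the 4 rises among proteases and inhibitors was called, and without replicate 1 or 2, 3 of the 5 rises among glycoproteins were.

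Of 53 mitosis genes, 8 were called lower and 0 higher in the knockdown, against 4.56% and 3.82% of all genes, with a median of −0.25. With Benjamini-Hochberg adjustment 22 were lower, against 10.6% of all genes, and at an unadjusted p under 0.05 from limma 27 were lower and 1 higher, against 13.3% and 19.9%. Under control siRNA 29 were called lower, against 5.72% of all genes, with a median of −0.92. Of the single-replicate omissions, leaving out replicate 1 brought the count of 8 to 1, replicate 2 to 4 and replicate 3 to 2. Anln, a scaffold of the cleavage furrow, fell from 12.70, 12.70 and 12.64 to 11.71, 11.99 and 11.14 (−1.07, SE 0.12, adjusted p = 9.84e-07) and by 1.89 under control siRNA. Foxm1, the transcription factor of mitotic genes, fell by 1.27 (adjusted p = 1.30e-05) and was no longer called without replicate 1 (−1.32). Mki67, the proliferation marker Ki-67, had 10.89, 10.81 and 10.47 on day −2 and 10.21, 10.24 and 9.36 on day 0 (−0.78, adjusted p = 0.00119), and was not called without any 1 of the replicates (−0.63 to −0.89). The difference between the siRNAs was above 0 for 50 of the 53 genes (94.3%), against 62.1% of all genes, with a median of 0.52 beside 0.05. It was called for 1 gene, Kif23, a motor of cytokinesis (0.94), and for 18 with Benjamini-Hochberg adjustment, against 0.816% and 3.71% of all genes.

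Of 43 replication and licensing genes, 1 was called higher and 3 lower, with a median of −0.20, beside 14 called lower and −0.50 under control siRNA. The shares of all genes were 3.82% called higher and 4.56% lower in the knockdown, and 5.72% lower under control siRNA. In the knockdown 15 were lower with Benjamini-Hochberg adjustment, against 10.6% of all genes. At an unadjusted p under 0.05 from limma 19 were lower, against 13.3%. By limma no difference between the siRNAs was called, while 5 passed with Benjamini-Hochberg adjustment (3.71% of all genes did) and 15 at an unadjusted p under 0.05 (11.5% of all genes). The difference was above 0 for 41 of the 43 genes (95.3%), against 62.1% of all genes, with a median of 0.27 beside 0.05. All 5 that passed with Benjamini-Hochberg adjustment were above 0. The 4 calls were Dut (1.04), Uhrf1 (−0.67), Mcm2 (−0.56) and Pold2 (−0.53), and without replicate 1 none of them was made. Among 20 G1 cyclins and E2F genes, 1 rose and 3 fell, against 3.82% and 4.56% of all genes. The rise, Myc (1.07), was not called without any 1 of the replicates (1.01 to 1.16) or under median scaling (0.96), and the falls were 0 without replicate 1, 2 without replicate 2 and 1 without replicate 3. Ccnd1, cyclin D1, went from 13.52, 13.48 and 13.64 to 13.20, 13.11 and 13.06 (−0.42, SE 0.07, adjusted p = 0.00554). This fall was not called without any 1 of the replicates (−0.35 to −0.47), and it was smaller than that of −1.36 under control siRNA (difference 0.94, SE 0.09, adjusted p = 1.37e-07). Ccnd2, cyclin D2, fell by 0.91 (adjusted p = 4.10e-05; −0.96 and not called without replicate 1).

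Among 28 CDK inhibitors, pocket proteins and growth arrest genes, 6 rose and 2 fell, against 3.82% and 4.56% of all genes. Gas6, a ligand of TAM receptors first found in arrested cells, rose from 11.94, 12.04 and 12.27 to 14.49, 14.51 and 14.72, or 5.62-fold (log2 2.49, SE 0.09, adjusted p = 9.29e-22), beside 1.27 under control siRNA. Tob2 (1.41, adjusted p = 1.14e-11), an antiproliferative protein, and Foxo1 (1.17, adjusted p = 8.94e-07) rose as well. Cdkn1a, the CDK inhibitor p21, fell from 11.38, 11.51 and 11.87 to 10.61, 10.70 and 10.99 (−0.82, SE 0.08, adjusted p = 2.63e-08), with no overlap. Cdkn1b and Cdkn1c were below background on all 6 arrays. The count of 6 rises was 3 without replicate 1 or replicate 2.

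Signalling lists gave calls in both directions. For each of them the shares of all genes were 3.82% called higher and 4.56% lower, and no list was tested as a set. In the Wnt pathway, which holds adipogenesis back, 4 of 38 genes rose and 2 fell. The co-receptor Lrp5 rose from 9.16, 9.14 and 9.23 to 10.60, 10.59 and 10.94 (1.53, SE 0.09, adjusted p = 3.24e-15) and the ligand Wnt4 rose by 1.41 (not called without replicate 1, 1.43, or replicate 3, 1.19). Ccn4, a secreted Wnt target also named WISP1, fell from 10.93, 10.90 and 11.05 to 9.04, 9.17 and 8.87 (−1.93, SE 0.09, adjusted p = 1.68e-17). In the TGF-β and BMP pathway 6 of 30 rose and 4 fell. The receptors Tgfbr2 (1.43, adjusted p = 1.13e-11) and Tgfbr3 (1.47, adjusted p = 8.21e-08) rose, while Grem1, a BMP antagonist, had a change of −0.92 and the ligands Tgfb2 and Tgfb3 each of −0.59. There were 6 rises without each replicate, but 0 falls without replicate 1 or replicate 2. In the Wnt list 1 rise was called without replicate 1 or 3 and 2 without replicate 2. Of 22 insulin and IGF signalling genes 2 rose, both binding proteins of IGF. Igfbp4 went from 9.96, 9.94 and 10.46 to 11.78, 11.88 and 12.29 (1.86, SE 0.12, adjusted p = 2.80e-13), and Igfbp5 was at least 1.22-fold higher, with all day −2 arrays below background. The 2 falls of this list became 0 without replicate 1.

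Of 22 sterol synthesis and uptake genes, 8 were called lower and 0 higher, with a median of −0.56. For these calls, and those of the interferon and ER stress lists, the shares of all genes were 4.56% lower and 3.82% higher. At an unadjusted p under 0.05 from limma 16 were lower and 1 higher, against 13.3% and 19.9% of all genes, which are also the shares for the next lists. Insig1, the sterol sensor that restrains SREBP, fell from 7.74, 7.70 and 7.66 to 6.18, 5.90 and 6.44, at least 2.27-fold lower (adjusted p = 1.47e-09), and Fdps, farnesyl diphosphate synthase, fell 2.12-fold from 13.77, 13.83 and 13.53 to 12.77, 12.83 and 12.27 (adjusted p = 5.88e-09). Of 32 interferon response genes, 11 were called lower and 0 higher (13 and 2 at an unadjusted p under 0.05 from limma), and 14 were below background on both days. Among the genes called, Oas1g was below background on all arrays of both days, and Ifit3 was above it on 1 array only. The median change of the 32 genes was −0.088, and 0.0012 with an offset of 50. Ifit2 fell from 8.80, 8.82 and 8.17 to 6.62, 6.75 and 5.95 (−2.15, SE 0.12, adjusted p = 4.92e-15) and Bst2, tetherin, from 11.65, 11.79 and 12.04 to 10.49, 10.58 and 10.32 (−1.37, SE 0.15, adjusted p = 1.63e-06). Of 26 genes of ER stress and the amino acid response, 5 were called lower and 0 higher (13 and 1 at an unadjusted p under 0.05 from limma), with a median of −0.17, among them Trib3 (−1.72, adjusted p = 4.65e-09), Chac1 (−1.72, adjusted p = 2.85e-08) and Herpud1 (−1.27, adjusted p = 5.93e-09). The ER stress count was 5 without each replicate. The sterol count was 2 without replicate 1 and 4 without replicate 3, and the interferon count 4 without replicate 1 and 7 without replicate 2.

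Chemokine and inflammatory genes had 3 calls higher and 5 lower of 30, against 3.82% and 4.56% of all genes. Complement C3, which fat cells and their precursors secrete, rose from 9.96, 9.84 and 9.95 to 12.85, 13.02 and 13.26, or 8.76-fold (log2 3.13, SE 0.12, adjusted p = 1.32e-20). The monocyte chemokines Ccl2 and Ccl7 fell by 2.44 (adjusted p = 3.99e-10) and 1.68 (adjusted p = 9.96e-15) on the log2 scale, Ccl7 from 12.18, 12.33 and 12.24 to 10.64, 10.88 and 10.20. Without replicate 1 or replicate 2, 3 of the 5 falls were called. Of 18 clock genes, Per1 rose and 2 fell, with Dbp, an output factor of the clock, going from 11.58, 11.57 and 11.56 to 9.10, 9.53 and 9.40 (−2.23, SE 0.11, adjusted p = 2.35e-17). The other fall, Tef (−0.55), was not called without any 1 of the replicates (−0.46 to −0.60) or under median scaling (−0.66). Of 17 glycolysis genes 1 was called, Eno2 (−0.54), which lost its call without any 1 of the replicates (−0.52 to −0.56). Of 22 cytosolic ribosomal protein genes 7 rose and 2 fell, with a median of 0.31, led by Rpl22 (1.12, adjusted p = 8.68e-08), but 2 rises and 0 falls were called without any 1 of the replicates, and 1 rise under median scaling.

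The labelled line was checked against markers. Of 12 fibroblast markers 11 were above background on all arrays of at least 1 day. Of the 12, 1 was called higher and 4 lower, against 3.82% and 4.56% of all genes. Pdgfra, the receptor that marks fat precursors, rose from 12.04, 11.89 and 11.85 to 13.76, 13.80 and 13.63 (1.80, SE 0.12, adjusted p = 4.89e-13). The 4 falls became 1 without replicate 1 and 2 without replicate 2. All 8 epithelial markers, 7 of 9 endothelial and 8 of 10 macrophage markers, the defining Ptprc and Adgre1 among them, were below background. Lyz2, lysozyme, which macrophages express most but other cells also make, was at least 2.59-fold lower on day 0 (7.86, 7.81 and 8.02 against 5.71, 5.46 and 5.86). Of 9 skeletal muscle markers only Acta1 was called, at least 2.30-fold lower. The median change was 0.11 for endothelial, 0.18 for epithelial, 0.12 for macrophage and 0.02 for muscle markers, and no other gene of these 4 lists was called (at an unadjusted p under 0.05 from limma, 2 endothelial genes were higher and 1 lower, and no epithelial gene was either).

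**Figure D3:**
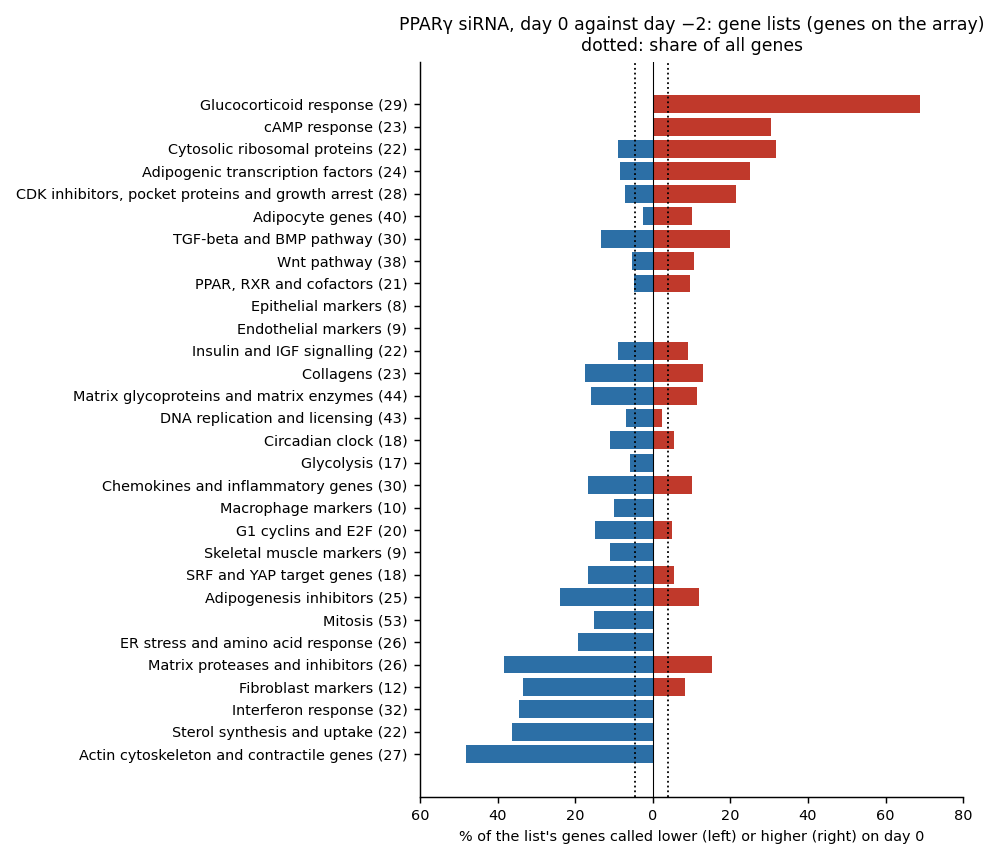
Share of each list's genes on the array (number in brackets) called lower (blue, left) or higher (red, right) on day 0 under PPARγ siRNA. The dotted lines are the shares of all genes, 4.56% lower and 3.82% higher; the glucocorticoid list reaches farthest to the right with 20 of 29 genes and the actin list farthest to the left with 13 of 27.

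Control cells changed over the same days as well. Under control siRNA 2229 probes (9.06%) were called, 4.01% of all probes higher and 5.04% lower, and across the 8602 probes above background the changes under the 2 siRNAs had a Pearson r of 0.89, given as a description of probes that share arrays, scaling and replicate numbers. The change itself differed for 163 probes (0.662%) under 157 symbols. It was more positive in the knockdown than in control for 93 of them and more negative for 70. For 92 of the 163 the knockdown moved the same way by less, for 47 it moved the opposite way and for 24 the same way by more. Fitted on the 12 arrays of these days alone, 19 probes were called, and the count was 33 without replicate 1 and 40 without replicate 2.

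The genes with the most positive differences were ones that fell in control cells and less or not by a called amount in the knockdown, and ones that rose more. Il1rl1, the receptor of interleukin-33, had 10.18, 10.33 and 10.25 on day −2 and 10.11, 10.46 and 9.89 on day 0 under PPARγ siRNA, while it fell by 2.29 under control siRNA (difference 2.19, SE 0.16, adjusted p = 6.40e-12). The chemokine Cxcl1 and the secreted factor Ccn5 (WISP2) were not called in the knockdown either, with changes of 0.37 and 0.18 beside −1.35 and −1.58 in control cells, and Ly6c1, a surface antigen, fell by 1.1 on the log2 scale beside −2.93 in control cells. Others rose more than in control cells. Lcn2 gained 6.91 beside 4.65 (difference 2.26, SE 0.20, adjusted p = 3.98e-09), Il31ra 3.20 beside 1.09 (difference 2.10, adjusted p = 1.45e-06) and Ramp3, a receptor-modifying protein, 2.46 beside 0.58 (difference 1.88, adjusted p = 4.27e-06). Scgb1c1 behaved likewise, with a difference of 1.73. Among the deepest falls, Mmp3 fell less than in control cells (difference 1.15, SE 0.18, adjusted p = 0.00317). For all 5 proteases and inhibitors with a called difference, the change was more positive in the knockdown than in control cells. The differences of Ramp3 (1.71) and Ccn5 (1.71) were not called without replicate 1, and that of Scgb1c1 not without replicate 1 (1.57) or replicate 2 (1.48).

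The 2 most negative called differences were in fat cell genes that rose in control cells and were not called in the knockdown. After Adipoq (difference −3.71, SE 0.32, adjusted p = 1.68e-09) and Cidec (−3.02, adjusted p = 1.61e-07) came, among others, Fabp5 (−2.69, SE 0.25), Acsl1 (−2.27, SE 0.22) and Gpd1, the glycerol-3-phosphate enzyme of triglyceride synthesis (−2.17, SE 0.20). Lrig1 and Ltc4s, outside the fat cell list, each had a negative change under PPARγ siRNA and a positive one under control siRNA. Lrig1, a feedback inhibitor of receptor kinases, had 9.97, 9.94 and 9.79 on day −2 and 9.12, 9.29 and 9.42 on day 0 under PPARγ siRNA (−0.62, adjusted p = 0.0676) and gained 1.63 under control siRNA (difference −2.25, SE 0.16, adjusted p = 3.94e-12). Ltc4s, leukotriene C4 synthase, fell by 0.97 and gained 1.18 in control cells (difference −2.15, adjusted p = 2.53e-07). Its fall was not called without replicate 1 (−0.99) or replicate 2 (−0.77), without background correction (−0.45) or with an offset of 50 (−0.63). The Ltc4s difference was not called without replicate 2 (−1.76). Under PPARγ siRNA the Ltc4s mean on day 0, 5.76, lay below the arrays' lowest signals above background (6.17 to 6.85), so that the size of its fall is not exact.

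**Figure D4:**
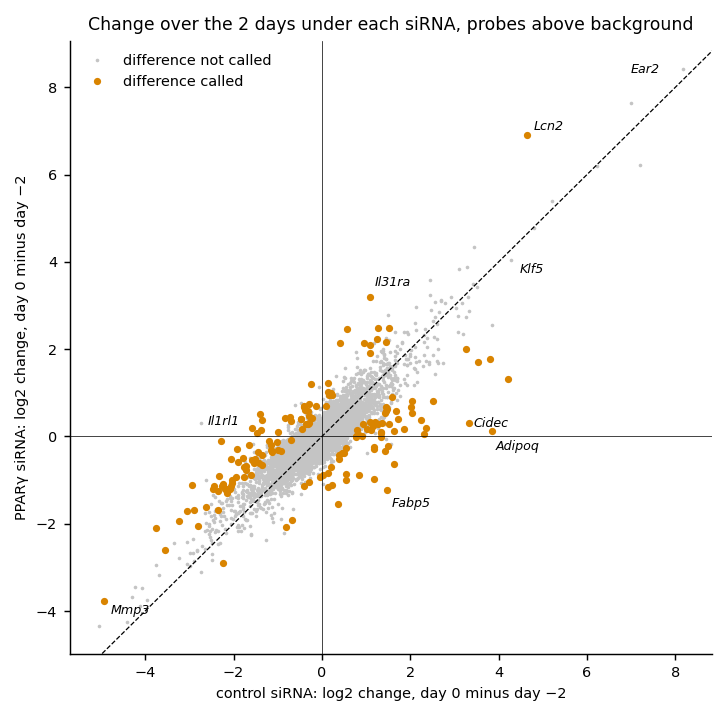
Log2 change from day −2 to day 0 under PPARγ siRNA (y axis) against that under control siRNA (x axis) for 8948 probes above background on all 3 arrays of at least 1 of the 4 groups; orange marks the 158 of them whose difference was called, and the dashed line is equality. Most probes lie along the line, with Adipoq, Cidec and Fabp5 below it and Lcn2, Il31ra and Il1rl1 above.

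After day 0, insulin and rosiglitazone replaced IBMX and dexamethasone, and several of these genes had later means near those of day −2. Under PPARγ siRNA Acta2 stood at 15.49 ± 0.03 (SD, n = 3) on day −2, 13.11 ± 0.07 on day 0 and 15.34 ± 0.10 on day 1. Mmp3 went from 9.74 ± 0.10 to 5.96 ± 0.45 and back to 8.54 ± 0.05 on day 1 and 10.40 ± 0.09 on day 6. Lcn2 had its highest mean on day 0 (13.14 ± 0.16) and stood at 7.89 ± 0.23 on day 6. Fkbp5 fell from 11.87 ± 0.31 on day 0 to 8.98 ± 0.23 on day 6, and Klf5 from 12.12 ± 0.21 to 7.97 ± 0.14, beside 8.44 ± 0.06 and 8.07 ± 0.05 on day −2. C3 stayed up, at 13.05 ± 0.21 on day 0 and 12.84 ± 0.13 on day 6. Adipoq, which did not move to day 0, was at 5.63 ± 0.20 on day 1 and 9.47 ± 0.03 on day 2. The mitosis gene Anln went from 12.68 ± 0.03 on day −2 to 11.62 ± 0.43 on day 0 and 13.18 ± 0.04 on day 1. The licensing gene Mcm2 went from 11.01 ± 0.19 to 10.45 ± 0.15 and 11.67 ± 0.16 on the same days. These later values are given as a description and were not tested.

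**Figure D5:**
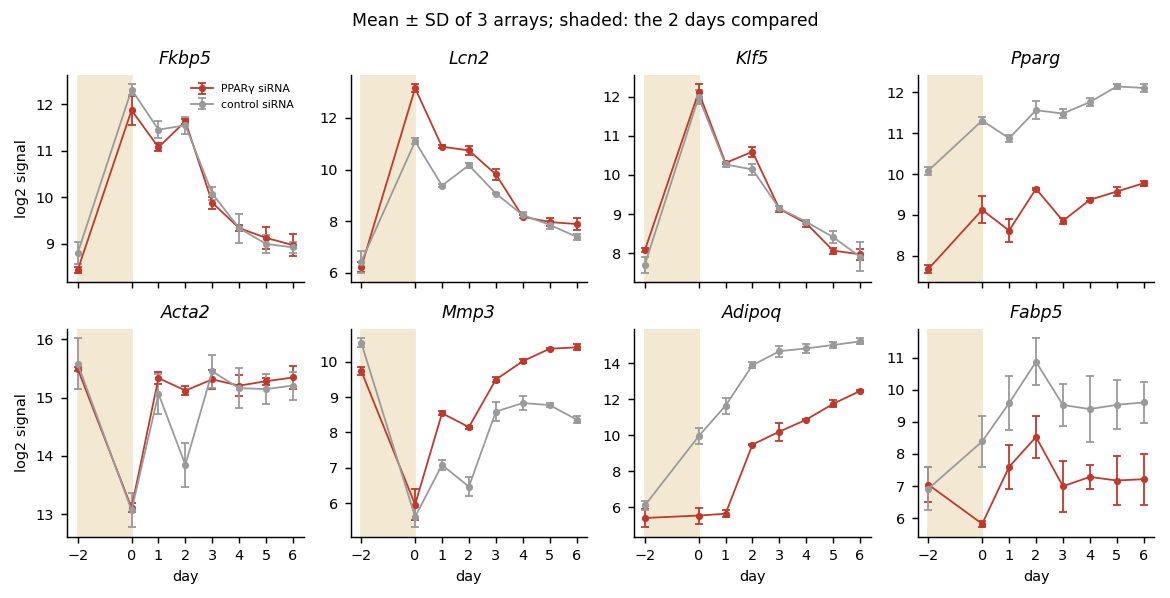
Mean log2 signal (y axis) ± SD of 3 arrays on each day (x axis) for 8 genes under PPARγ siRNA (red) and control siRNA (grey); the shaded area is day −2 to day 0. Fkbp5, Lcn2 and Klf5 peak on day 0, Acta2 and Mmp3 have their lowest mean there, and Adipoq and Fabp5 rise to day 0 under control siRNA only.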

How the data were processed

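RNA of 3T3-L1 cells was read on Illumina MouseRef-8 arrays. The authors deposited the mean bead intensity of each probe, summarised by BeadStudio 3.3.7 without normalization, and a detection fraction deposited beside it, which is 1 minus the detection p. From the intensities, limma 3.58.1 under R 4.3.3 removed background by normexp (offset 16), with negative controls inferred from detection. Arrays were scaled by rank-invariant probes (50th to 90th percentile of signal, rank move under 0.05), after the study's methods but not with BeadStudio's routine. A linear model on the log2 scale (lmFit, eBayes) took in all 48 arrays, with a term for every combination of siRNA and day plus a block for the replicate number, and p-values were Bonferroni-adjusted at 0.05. The labels state 3 independent biological replicates. Deviations of same-numbered knockdown arrays correlated between 0.68 and 0.91 across the 2 days, and those of differently numbered arrays between −0.88 and 0.75. Replicate 1 of day −2 correlated more with replicate 2 of day 0 (0.75) than with replicate 1 of day 0 (0.68). Detection also gave the bounds: a group below background on all 3 arrays counts at the lowest signal above background, or its own where higher.

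The members and lists were chosen with earlier results of these data known. Named genes are the 12 highest rises and 12 deepest falls among calls made the same way in 3 replicates, the 8 most positive and negative differences from control, up to 3 rises and 3 falls per list, and a set fixed by function. Some genes the rule picks are not reported here, and genes named beyond it were picked after their values were seen. Of 18991 file names, 13869 matched a RefSeq symbol and 3473 a synonym. Simulated data were used to check the fits. Alternatives varied normalization, background, offset, filter, block, arrays fitted, variance, adjustment and replicates. Figures were drawn with matplotlib 3.10.9.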

Additional observations from a re-analysis of the deposited data

Results flagged for a closer look

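The change from day −2 to day 0 differed between PPARγ siRNA and control siRNA for 163 probes by the test of the difference itself. Of the genes named here, those with a negative log2 difference in change included Adipoq (−3.71), Cidec (−3.02), Fabp5 (−2.69), Acsl1 (−2.27), Lrig1 (−2.25), Gpd1 (−2.17), Ltc4s (−2.15), Col8a1 (−1.91), Ppargc1b (−1.58), Rps19 (−1.42), Rxra (−0.88), F3 (−0.87), Dgat1 (−0.86) and Gper1 (−0.65). Those with a positive difference included Lcn2 (2.26), Il1rl1 (2.19), Il31ra (2.10), Ramp3 (1.88), Ly6c1 (1.83), Ccn5 (1.76), Scgb1c1 (1.73), Cxcl1 (1.72), Trib3 (1.34), Sfrp2 (1.31), Ccn4 (1.29), Ccl7 (1.22), Gas6 (1.22), Mmp3 (1.15), Fhl1 (0.96), Ccnd1 (0.94) and Adamts2 (0.89).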

How the results depend on the processing

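The count of 1818 probes lay between 1269 and 2113 under other normalizations, offsets, filters, variance estimates and blocks within siRNA, without background correction and on the 6 arrays alone. With Benjamini-Hochberg adjustment it was 5059 (2652 higher, 2407 lower), and 782 for the difference from control siRNA. Samples were paired by replicate number, but the correlations of the arrays did not clearly separate replicates 1 and 2. Without the replicate block 957 probes were called, 418 higher and 539 lower, and 57 differed from control; with the replicate block within each siRNA 2079 were called and 221 differed. Median scaling gave 404 higher probes and 82 differences. On the 12 arrays compared, 19 differences were called. Without each replicate the counts lay between 872 and 1196 in all, 398 and 515 higher, 421 and 681 lower, and 33 and 143 for the difference. Of the 128 named genes called in the knockdown, all kept their sign under each alternative. Their calls held for 87, 99 and 104 without replicates 1, 2 and 3, 87 without the block, 107 under median scaling and at least 115 under the others. Changes that were not called and crossed 0 were those of Adipoq under quantile normalization (−0.0037), Acsl1 and Cdkn1b under median scaling (−0.065 and −0.027) and Fabp4 under quantile normalization (−0.026). Without each replicate Il1rl1 lay between −0.21 and 0.034, Acsl1 between −0.016 and 0.087, Fabp4 between −0.077 and 0.33 and Cdkn1b between −0.079 and 0.26. The cause of these shifts was not tested, beyond the smaller number of arrays where a replicate was left out. Signal over background limits genes near the floor, where changes are bounds.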

Other observations

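Some genes had a called change under 1 siRNA only, and a called difference between the siRNAs. Col8a1, a short-chain collagen, fell from 9.87, 9.93 and 9.51 to 8.01, 8.38 and 8.28 under PPARγ siRNA (−1.55, adjusted p = 1.18e-10) and changed by 0.36 under control siRNA. F3, tissue factor, changed by −0.92 and −0.05. Gadd45g, a stress gene chosen after its value was seen, changed by 0.40 and 1.72. Sfrp2, a Wnt inhibitor, fell under both siRNAs, by 1.13 under PPARγ siRNA (not called without replicate 1 or replicate 2) and by 2.44 under control siRNA.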
